A study of Homo sapiens with 9 samples.

Results

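The nuclear genes of the aminoacyl-tRNA synthetases were followed across cells labelled as the neuroblastoma line IMR-32. Members were all protein-coding genes whose symbol was a letter followed by ARS1 or ARS2, together with EPRS1, FARSA and FARSB. Of 37 such genes in the annotation, 34 were analysed here, among 22290 genes in all. They were 20 cytosolic and 14 mitochondrial enzymes, the latter marked by the suffix 2, and the other 3, all mitochondrial by name, were not analysed here. No filter on low values was applied to the members.

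Libraries of mRNA were made from total RNA and sequenced, with 3 libraries in each group. The groups were parental cells (genotype WT), cells with the genotype label TRAP-1 knockdown (KD) and cells with the genotype label TRAP-1 overexpression (OE). TRAP1 is a chaperone of the HSP90 family in the mitochondrial matrix. The KD and OE lines came from earlier work of the authors, and whether each is a single clone is not stated in the methods read here. Nor is it stated that the 3 libraries of a group came from separate cultures, so p-values measure the spread between libraries, which may be technical. Values are regularized log2 values (rlog), which are pulled toward the mean of each gene, so that a difference of rlog values understates the log2 fold change, more so for genes with few reads. The depth reached by each library is unknown from such values.

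Each synthetase joins an amino acid to its tRNA and thereby sets which amino acid a codon calls for. Cytosol and mitochondria mostly use separate enzymes from separate nuclear genes, whereas GARS1 and KARS1 each encode both forms, and the bifunctional EPRS1 charges glutamate and proline in the cytosol. Several cytosolic enzymes sit in a large multisynthetase complex, and many cytosolic synthetase genes are known targets of ATF4, the transcription factor of the amino acid and integrated stress responses. Inherited defects of GARS1 and YARS1 cause peripheral neuropathy, and defects of many mitochondrial enzymes cause diseases of the brain, the heart or the ovary.

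TRAP1 itself was read first, as a check of the labels. Its rlog value was 10.67, 10.66 and 10.65 in the parental libraries, 10.79, 10.79 and 10.83 in those labelled KD, and 10.67, 10.63 and 10.74 in those labelled OE. Its difference from parental was 0.14 for KD (standard error, SE, 0.025, adjusted p = 1.8e-05, limma) and 0.018 for OE (adjusted p = 0.643, limma). A fall of TRAP1 RNA is therefore not seen under the KD label, and KD and OE are used below as names of libraries only.

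The line was also compared with markers of its label. Of 12 adrenergic neuroblastoma markers 9 had values, and PHOX2A, TH and MYCN were under an rlog of 4 in every library. MYCN, which is amplified in IMR-32, had a mean rlog of 2.52 in the parental libraries, where the lowest value of the table was 0.14. The most abundant of the 9 was ISL1, with a mean of 9.29, and the log2 of their summed level was 9.97, 9.93 and 9.96 in the parental libraries, 9.86, 9.82 and 9.83 in those labelled KD, and 9.87, 9.94 and 9.90 in those labelled OE. Of these 9, 4 were called lower (44.4%) and 2 higher (22.2%) for KD, where 26.9% of all genes were called in each direction. For OE 2 were called lower (22.2%, against 18% of all genes). Of 6 epithelial markers 4 had values, EPCAM was under 4 in every library, and KRT18 was the most abundant with a mean of 12.04. Their summed level was 12.50, 12.51 and 12.49 in the parental libraries, 12.52, 12.56 and 12.57 in those labelled KD, and 12.37, 12.36 and 12.38 in those labelled OE. Within that sum KRT8 was higher by 0.39 for KD and 0.40 for OE, and for OE CLDN4 (-0.57) and KRT18 (-0.10) were lower, all called. All 6 mesenchymal markers had values, with COL1A2, COL3A1 and DCN under 4 in every library and PDGFRB the most abundant at 8.53. Their summed level was 8.67, 8.70 and 8.76 in the parental libraries, 8.68, 8.85 and 8.71 in those labelled KD, and 8.79, 8.84 and 8.82 in those labelled OE, and LUM was called lower for KD (-0.18) and higher for OE (0.22). The low MYCN, PHOX2A and TH values go against the label of the line. In RNA from whole cultures, fewer cells of a kind and less RNA per cell cannot be told apart, and the part of the markers in the results on the synthetases was not tested.

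In the parental libraries the cytosolic enzymes stood above the mitochondrial ones in level per length, taken as the mean rlog minus the log2 of the transcript length in kb. The median of this level was 11.82 for the 20 cytosolic genes and 9.14 for the 14 mitochondrial genes, a gap of 2.68, or 2.31 with the length of all annotated exons instead of the canonical transcript. Cytosolic levels per length ran from 8.93 in FARSB, the beta chain of the phenylalanine enzyme, to 12.71 in KARS1, the lysine enzyme. The sets overlapped, with 8 mitochondrial genes above FARSB, and IARS2, the mitochondrial isoleucine enzyme, led its set at 11.70. SARS2 stood apart at 1.05 per length, with rlog values of 1.97, 2.01 and 1.99 in the parental libraries, and shares 48.2% of its exonic bases with an overlapping gene, so its own level is uncertain. All other mitochondrial members had a level per length of at least 7.19, the value of PARS2.

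**Figure D1:**
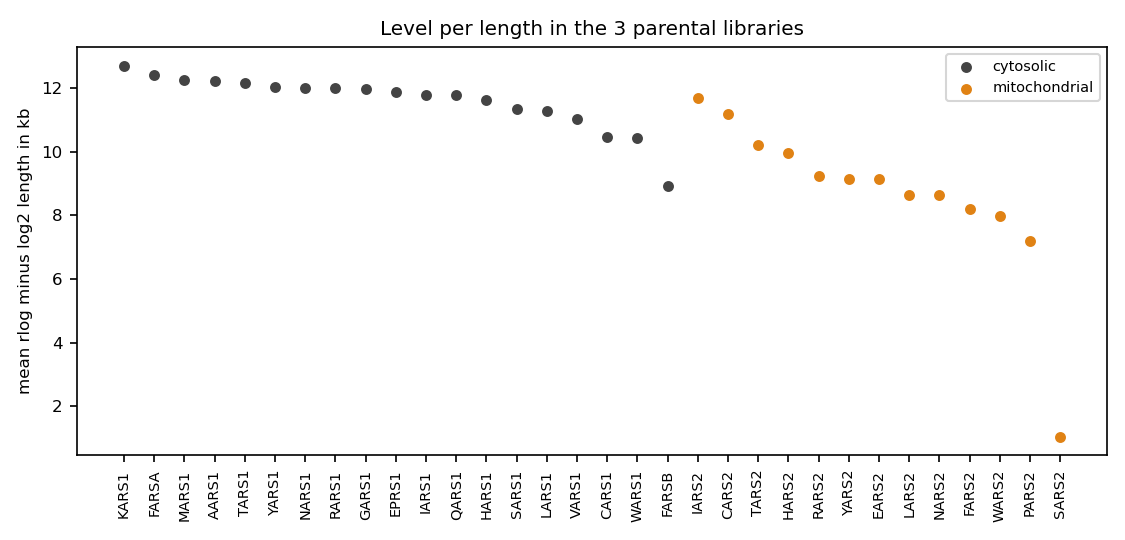
Level per length of synthetase genes in the parental libraries (mean rlog minus log2 of the canonical transcript length in kb; points are means of 3 libraries). Over all members the cytosolic median is 11.82 and the mitochondrial median 9.14, and SARS2 lies at 1.05.

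Differences between the groups were small and reached past the spread between libraries for many members. A gene was called at an adjusted p under 0.05 from limma, a moderated linear model with Benjamini-Hochberg adjustment over all 22290 genes. Within a group, the SD of a member over its libraries had a median of 0.017. Of the 34 members, 22 were called between the libraries labelled KD and parental (64.7%), where 53.7% of all genes and 75.8% of the 9956 well-expressed genes (average rlog 8 or more) were called. For OE against parental the count was 17 (50%), against 34.8% of all genes and 56.7% of the well-expressed ones. In 23 members the KD and parental groups did not overlap (67.6%, against 59.2% of all and 78.4% of well-expressed genes), and in 21 the OE and parental groups did not (61.8%, against 43.2% and 63.9%). Both shares of called members lie between that of all genes and that of well-expressed genes, so the number called is not a result about the synthetases. The 2 comparisons share the parental libraries, and their values stand side by side below.

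More cytosolic enzymes were lower than higher in the libraries labelled KD. Of the 20 cytosolic genes, 10 were called lower (50%, against 26.9% of all genes called lower) and 5 higher (25%, against 26.9% of all genes called higher). Of the well-expressed genes 39.4% were called lower. The median difference of the cytosolic set was -0.061, and its median against the parental mean was -0.060, -0.056 and -0.056 in the 3 libraries labelled KD, where all genes had a median of -0.00051. With the median of each 20-Mb block removed, as described below, the cytosolic median was -0.011, with 9 genes called lower and 6 higher. Most of the shift of the cytosolic median was thus lost on removal of block medians, but not the decreases of most single genes. Of the 10 called lower, QARS1 alone turned, to 0.15, and IARS1 shrank to -0.055. The other large decreases stayed, in YARS1 (-0.26), TARS1 (-0.23), NARS1 (-0.21) and GARS1 (-0.19). Of the 14 mitochondrial genes, 4 were called lower (28.6%) and 3 higher (21.4%), with a median difference of 0.0055. Removal of block medians turned this split to 4 higher and 3 lower, with a median of -0.0076. The median was also negative with a minimum mean rlog of 5 (-0.0015) and without parental replicate 3 (-0.0054). Whether the sets differ was not tested.

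**Figure D2:**
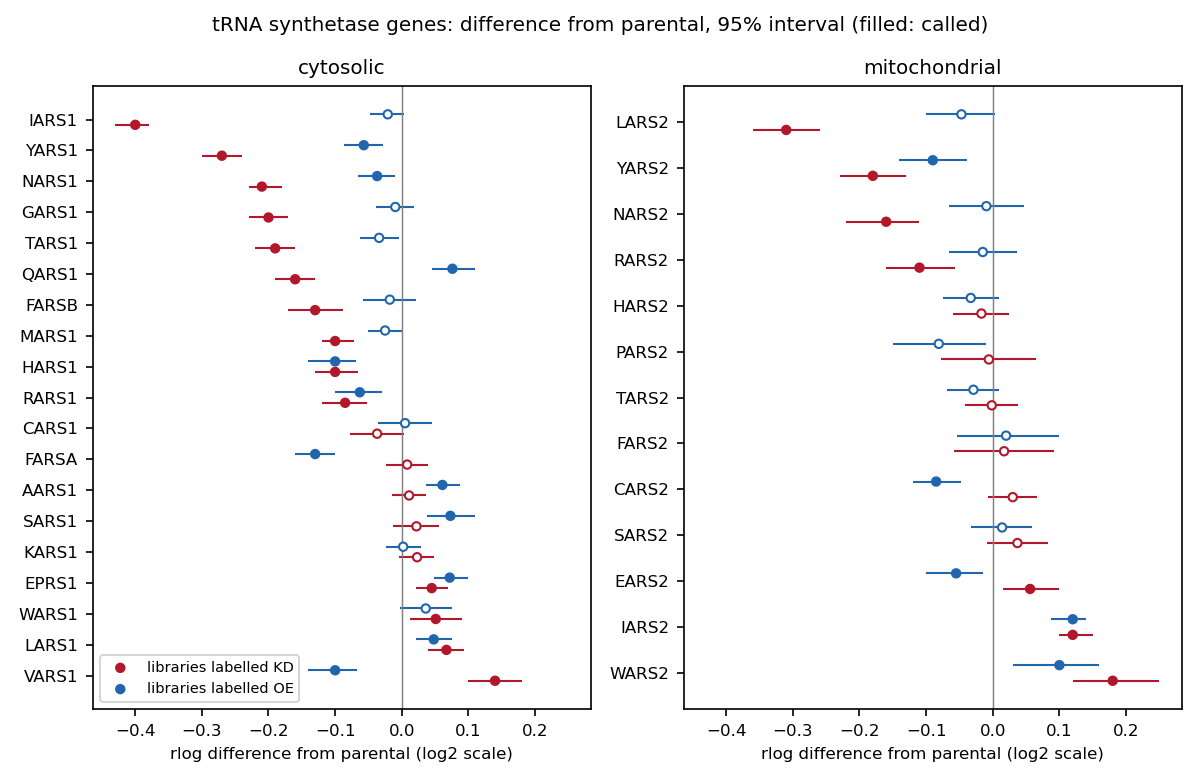
Difference of synthetase genes from parental in rlog (log2 scale) for the libraries labelled KD and OE, with 95% intervals from limma and filled points for called genes. IARS1 and LARS2 lie lowest in the libraries labelled KD, at -0.40 and -0.31, and no member differs by more than 0.5.

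The largest difference among the members was that of IARS1, the cytosolic isoleucine enzyme (ENSG00000196305, chr9:92210207-92293854, minus strand, GRCh38). Its rlog was 13.95, 13.96 and 13.94 in the parental libraries and 13.55, 13.55 and 13.53 in those labelled KD. The groups did not overlap, and the difference was -0.40 (SE 0.012, adjusted p = 3.2e-23, limma). The libraries labelled OE, at 13.94, 13.92 and 13.92, were close to parental (difference -0.021, adjusted p = 0.202, limma).

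The position of IARS1 bears on this value. Of the 58 other well-expressed genes in its 20-Mb stretch of chromosome 9, 94.8% were lower in the libraries labelled KD, with a median difference of -0.36. With the median of each such stretch removed, IARS1 differed by -0.055 and was still called (adjusted p = 1.5e-04, limma, the highest over 16 alternatives, of which the lowest was 5.7e-26). Most of the drop in IARS1 was thus shared with the genes around it, and what lowered the whole stretch was not tested.

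A similar stretch on chromosome 3 holds QARS1 and LARS2, both within the same 20-Mb block. There, 94.9% of 138 other genes were lower in the libraries labelled KD, with a median difference of -0.31 around QARS1 and -0.30 around LARS2. LARS2, the mitochondrial leucine enzyme (ENSG00000011376, chr3:45388561-45554726, plus strand), had 10.92, 10.88 and 10.93 in the parental libraries and 10.65, 10.58 and 10.57 in those labelled KD. Its groups did not overlap, and the difference of -0.31 (SE 0.024, adjusted p = 1.6e-12, limma) was close to the median of its neighbours. The libraries labelled OE, at 10.86, 10.84 and 10.88, reached into the parental range (difference -0.047, adjusted p = 0.147, limma). After removal of the block median it was -0.00091 and no longer called (adjusted p = 0.977, limma, against 4.6e-14 at the lowest of the 16 alternatives).

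QARS1, the glutamine enzyme (ENSG00000172053, chr3:49095932-49105130, minus strand), fell less than the genes around it. It had 13.07 in each of the 3 parental libraries, 12.89, 12.93 and 12.93 in those labelled KD, and 13.14, 13.14 and 13.17 in those labelled OE. No groups overlapped, and QARS1 was called lower in the libraries labelled KD (difference -0.16, standard error 0.015, adjusted p = 1.1e-10, limma) and higher in those labelled OE (0.076, standard error 0.015, adjusted p = 1.3e-04, limma). Relative to its block it was higher in both, by 0.15 in the libraries labelled KD (adjusted p = 1.2e-10, limma) and by 0.078 in those labelled OE. For KD, removal of block medians was the 1 of 16 alternatives that turned its sign, and QARS1 was lower under the others. The adjusted p over all 16, whatever the sign, ran from 1.6e-11 to 4.6e-05 (limma).

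**Figure D3:**
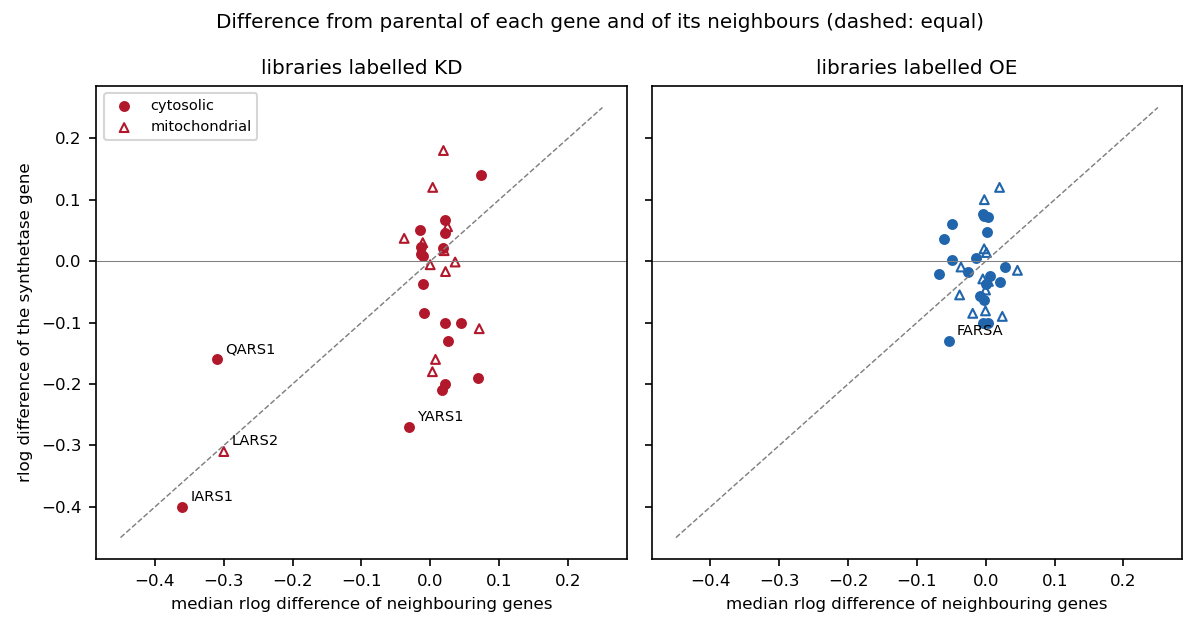
Difference of synthetase genes from parental in rlog (vertical axis) against the median difference of the other genes in the same 20-Mb block (horizontal axis), for the libraries labelled KD and OE. In the libraries labelled KD, IARS1, LARS2 and QARS1 lie at neighbour medians of -0.36 to -0.30, and every other gene shown lies near 0 on the horizontal axis.

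The other cytosolic genes that fell lie among neighbours with median differences between -0.031 and 0.069 in the libraries labelled KD. YARS1, the tyrosine enzyme (ENSG00000134684, chr1:32775237-32818031, minus strand), had 13.34, 13.33 and 13.31 in the parental libraries, 13.04, 13.07 and 13.05 in those labelled KD and 13.26, 13.27 and 13.29 in those labelled OE. Every group was clear of the others, with the libraries labelled KD lowest. The difference was -0.27 in the libraries labelled KD (SE 0.014, adjusted p = 3.2e-17, limma) and -0.057 in those labelled OE (SE 0.014, adjusted p = 0.00179, limma).

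NARS1, the asparagine enzyme (ENSG00000134440, chr18:57600656-57622213, minus strand), went from 13.46, 13.46 and 13.44 in the parental libraries to 13.26, 13.25 and 13.24 in those labelled KD. The difference was -0.21 (SE 0.014, adjusted p = 1.5e-14, limma), and the groups did not overlap. In the libraries labelled OE it stood at 13.43, 13.41 and 13.41, lower by a called difference of -0.037 (adjusted p = 0.0322, limma) whose adjusted p ranged from 0.00165 to 0.125 over 16 alternatives. That call was lost without parental replicate 1 or 2, without OE replicate 2 or 3, without a variance trend and with each library centred.

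GARS1, the glycine enzyme (ENSG00000106105, chr7:30580533-30634033, plus strand), had 13.23, 13.24 and 13.26 in the parental libraries and 13.06, 13.05 and 13.04 in those labelled KD. It was lower by a difference of -0.20 (SE 0.014, adjusted p = 9.0e-14, limma), without overlap. The libraries labelled OE, at 13.24, 13.23 and 13.23, lay within the parental range (difference -0.0097, adjusted p = 0.655, limma). TARS1, the threonine enzyme, was lower in the libraries labelled KD by nearly as much (-0.19, adjusted p = 2.0e-13, limma). FARSB, MARS1, HARS1 and RARS1 completed the genes called lower, with differences from -0.13 to -0.085. Of the exonic bases of MARS1, the methionine enzyme, 13.3% are shared with other genes, among them DDIT3 on the opposite strand, and the library kit does not mark strand.

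VARS1 was among the cytosolic genes that rose in the libraries labelled KD, with a difference of 0.14. LARS1, WARS1 and EPRS1 were higher by 0.067, 0.051 and 0.045. The call of WARS1 was lost without parental replicate 1, KD replicate 1 or KD replicate 3 and without a variance trend (adjusted p 0.00961 to 0.0706 over 16 alternatives). That of EPRS1 was lost with block medians removed (2.0e-04 to 0.23). AARS1, CARS1, FARSA, KARS1 and SARS1 were not called, with differences between -0.037 and 0.023. KARS1 gained a call of higher level with libraries centred (adjusted p = 0.0445, limma) and with block medians removed (0.0131).

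Promoter sequences were read because several enzymes were called lower in the libraries labelled KD and ATF4 is a known regulator of such genes. The letters TGATGNAA, the core of the C/EBP-ATF response element, were searched on both strands in RefSeq windows of 300 bases, from 250 before to 50 after a start (GRCh38.p14). Windows were found for 29 of the 34 members, and, among others, not for LARS1, VARS1 and YARS1. The letters were in a window of 8 of these 29 genes, or in 8 of 38 windows (21.1%), against 3.62% of all 35116 windows. The 8 genes were TARS1, GARS1, IARS1, CARS1, MARS1, AARS1, NARS1 and, alone among the 13 mitochondrial genes, YARS2. Among the members with windows, 6 of 13 called lower in the libraries labelled KD held the letters, and 2 of 16 others did. This is a description with no test, and it mixes compartment with direction. By compartment, 7 of 16 cytosolic and 1 of 13 mitochondrial members with windows held the letters. The genes called lower also include IARS1, which holds the letters, and LARS2 and QARS1, which do not, all from the lowered stretches. With block medians removed, IARS1 differed by -0.055, LARS2 by -0.00091 and QARS1 by 0.15 in the libraries labelled KD. A match is not evidence of binding, and ATF4 binding was not measured. Windows of the lowered genes IARS1, NARS1, GARS1 and TARS1 follow, with that of AARS1, which holds the letters and was not called in the libraries labelled KD, and the match is in capitals, as TGATGNAA or its reverse complement. They run 5′ to 3′ on the strand of each gene, at chr9:92293648-92293947 (minus), chr18:57621787-57622086 (minus), chr7:30594628-30594927 (plus), chr5:33440715-33441014 (plus) and chr16:70289457-70289756 (minus).
IARS1: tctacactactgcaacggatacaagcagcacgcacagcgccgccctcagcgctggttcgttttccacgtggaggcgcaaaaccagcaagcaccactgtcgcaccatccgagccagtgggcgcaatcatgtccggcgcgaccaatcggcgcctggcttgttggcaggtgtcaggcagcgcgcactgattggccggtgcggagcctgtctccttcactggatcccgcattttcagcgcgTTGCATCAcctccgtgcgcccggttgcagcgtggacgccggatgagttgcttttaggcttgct
NARS1: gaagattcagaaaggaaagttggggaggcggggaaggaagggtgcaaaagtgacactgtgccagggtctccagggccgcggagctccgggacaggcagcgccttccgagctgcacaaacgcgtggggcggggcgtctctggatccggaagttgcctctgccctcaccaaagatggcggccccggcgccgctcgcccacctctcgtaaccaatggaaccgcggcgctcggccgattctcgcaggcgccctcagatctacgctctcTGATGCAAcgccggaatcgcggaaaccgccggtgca
GARS1: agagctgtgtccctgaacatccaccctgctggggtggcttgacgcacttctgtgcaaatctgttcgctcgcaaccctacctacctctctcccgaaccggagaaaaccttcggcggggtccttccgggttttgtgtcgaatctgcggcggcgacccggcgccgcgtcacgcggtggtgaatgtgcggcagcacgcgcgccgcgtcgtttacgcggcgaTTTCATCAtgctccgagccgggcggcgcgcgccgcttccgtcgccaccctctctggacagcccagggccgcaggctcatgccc
TARS1: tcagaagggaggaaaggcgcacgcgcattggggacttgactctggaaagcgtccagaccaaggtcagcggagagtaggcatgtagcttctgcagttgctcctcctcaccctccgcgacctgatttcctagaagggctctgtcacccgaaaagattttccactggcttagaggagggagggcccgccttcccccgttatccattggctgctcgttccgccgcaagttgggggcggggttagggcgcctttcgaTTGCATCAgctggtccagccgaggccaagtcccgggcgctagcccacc
AARS1: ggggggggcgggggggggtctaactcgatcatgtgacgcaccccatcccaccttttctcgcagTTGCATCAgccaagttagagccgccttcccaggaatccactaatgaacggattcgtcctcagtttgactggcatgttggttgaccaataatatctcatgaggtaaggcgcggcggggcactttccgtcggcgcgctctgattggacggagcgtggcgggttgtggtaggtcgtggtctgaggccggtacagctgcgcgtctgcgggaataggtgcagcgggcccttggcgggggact
The match begins 13 bases before the start in IARS1, 33 before it in GARS1 and 187 before it in AARS1, and 14 and 2 bases after it in NARS1 and TARS1.

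The ATF4 list itself, which holds no synthetase, had more genes lower than higher in the libraries labelled KD. Of its 19 genes with values (21 listed), 13 were called lower (68.4%) and 5 higher (26.3%), with a median difference of -0.17. Of all genes 26.9% were called lower and 26.9% higher, and of the well-expressed ones 39.4% and 36.4%. ATF4 fell by 0.12 on the log2 scale, and the largest decreases were those of the transcription factor ATF3 (-1.12), the amino acid transporter SLC7A5 (-0.84) and the glutathione-degrading CHAC1 (-0.82). EIF4EBP1 (0.27), VLDLR (0.23) and SLC7A11 (0.20) were higher. For OE against parental, 10 were called lower (52.6%, against 18% of all and 31.5% of well-expressed genes) and 4 higher (21.1%, against 16.9% and 25.2%), with a median of -0.043. There ATF3 (-0.44), PPP1R15A (-0.33) and SESN2 (-0.30) fell furthest, and VLDLR (0.61), DDIT4 (0.32) and PHGDH (0.22) rose most. Whether the synthetases moved with these genes was not tested.

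Mitochondrial enzymes moved both ways in the libraries labelled KD. YARS2, the tyrosine enzyme (ENSG00000139131, chr12:32727490-32755897, minus strand), had 10.22, 10.25 and 10.22 in the parental libraries, 10.04, 10.06 and 10.06 in those labelled KD and 10.14, 10.16 and 10.12 in those labelled OE. No groups overlapped. It was lower by a difference of -0.18 for KD (SE 0.025, adjusted p = 2.5e-07, limma) and of -0.090 in those labelled OE (SE 0.025, adjusted p = 0.00483, limma), and a gene on the opposite strand covers 18.1% of its exonic bases.

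NARS2, the asparagine enzyme (ENSG00000137513, chr11:78435620-78575194, minus strand), had 9.99, 9.96 and 10.01 in the parental libraries and 9.81, 9.83 and 9.81 in those labelled KD. The groups did not overlap, and the difference was -0.16 (SE 0.028, adjusted p = 6.3e-06, limma). At 9.93, 9.97 and 10.02, the libraries labelled OE overlapped the parental ones. RARS2, the arginine enzyme, completed the mitochondrial genes called lower in the libraries labelled KD, with a difference of -0.11 (adjusted p = 4.6e-04, limma).

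WARS2, the mitochondrial tryptophan enzyme (ENSG00000116874, chr1:119031216-119140654, minus strand), was higher in both. Its values were 9.47, 9.50 and 9.44 in the parental libraries, 9.71, 9.67 and 9.59 in those labelled KD and 9.56, 9.53 and 9.61 in those labelled OE. The parental libraries lay below all others, while the libraries labelled KD and OE overlapped each other. The difference was 0.18 in the libraries labelled KD (SE 0.032, adjusted p = 1.1e-05, limma) and 0.10 in those labelled OE (SE 0.032, adjusted p = 0.0177, limma). The OE call was lost with no variance trend (adjusted p = 0.051, limma) and on leaving out parental replicate 3 (0.0809) or OE replicate 3 (0.106), in a range over the alternatives of 0.00801 to 0.106.

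IARS2, the mitochondrial isoleucine enzyme (ENSG00000067704, chr1:220094132-220148041, plus strand), had 13.50, 13.54 and 13.52 in the parental libraries, 13.66, 13.65 and 13.63 in those labelled KD and 13.63, 13.63 and 13.65 in those labelled OE. It rose by 0.12 in each, with the parental libraries below all others (SE 0.014 in both, adjusted p = 1.8e-09 and 2.4e-08, limma). This is the opposite direction to its cytosolic counterpart IARS1 in the libraries labelled KD.

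EARS2, the mitochondrial glutamate enzyme (ENSG00000103356, chr16:23520754-23557731, minus strand), was called in opposite directions. It had 11.51, 11.54 and 11.50 in the parental libraries, 11.58, 11.58 and 11.56 in those labelled KD and 11.49, 11.46 and 11.45 in those labelled OE. The 3 groups did not overlap. The differences were 0.056 in the libraries labelled KD (SE 0.020, adjusted p = 0.0165, limma) and -0.055 in those labelled OE (SE 0.020, adjusted p = 0.0273, limma). The KD call was lost without parental replicate 1 (0.0525), without parental replicate 3 (0.0668) and with block medians removed (0.348), in a range of 0.00651 to 0.348. The OE call was lost under 5 of 16 alternatives, among them without parental replicate 2 (0.135), without OE replicate 2 (0.0884) and without OE replicate 3 (0.0922), in a range of 0.012 to 0.225. CARS2, FARS2, HARS2, PARS2, SARS2 and TARS2 were not called in the libraries labelled KD, with differences from -0.017 to 0.037. With block medians removed, CARS2 (0.055, adjusted p = 0.0135, limma) and SARS2 (0.077, adjusted p = 0.00586, limma) were called higher there. Both enter the 4 mitochondrial genes called higher under that alternative. The neighbours of SARS2 are well expressed and had a median difference of -0.038, whereas SARS2 itself had a mean rlog of 1.99 in the parental libraries.

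As many cytosolic genes were called higher as lower for OE against parental. Of the 20, 6 were called higher (30%, against 16.9% of all genes called higher) and 6 lower (30%, against 18% of all genes called lower), with a median difference of -0.014. Of the well-expressed genes 25.2% were called higher and 31.5% lower, near the 30% of the members. With block medians removed, 9 cytosolic genes were called higher and 7 lower, and the median turned to 0.018. Of the 14 mitochondrial genes, 2 were called higher (14.3%) and 3 lower (21.4%), with a median of -0.023, or 2 higher and 1 lower with block medians removed. The median over all genes was 0.00039, and over well-expressed genes it was -0.011. Whether either set moved as a whole was not tested.

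FARSA, the alpha chain of the phenylalanine enzyme (ENSG00000179115, chr19:12922479-12934037, minus strand), fell in the libraries labelled OE. Its values were 13.30, 13.27 and 13.25 in the parental libraries, 13.28, 13.28 and 13.29 in those labelled KD and 13.12, 13.14 and 13.18 in those labelled OE. The libraries labelled OE lay below all others, with a difference from parental of -0.13 (SE 0.016, adjusted p = 7.7e-08, limma). With block medians removed this was -0.074 and still called, among neighbours with a median difference of -0.054. Its partner FARSB, which forms the same enzyme, was instead lower in the libraries labelled KD (-0.13, adjusted p = 1.3e-06, limma) and differed by -0.018 in those labelled OE (adjusted p = 0.539, limma).

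VARS1, the valine enzyme (ENSG00000204394, chr6:31777518-31795752, minus strand), moved in opposite directions. It had 13.07, 13.04 and 13.08 in the parental libraries, 13.16, 13.21 and 13.23 in those labelled KD and 12.92, 12.96 and 13.00 in those labelled OE. No groups overlapped. The differences were 0.14 in the libraries labelled KD (SE 0.018, adjusted p = 7.9e-08, limma) and -0.10 in those labelled OE (SE 0.018, adjusted p = 2.2e-05, limma). Around VARS1 the other genes had a median difference of 0.073 in the libraries labelled KD, and with block medians removed VARS1 was higher there by 0.071 and still called.

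HARS1, the histidine enzyme (ENSG00000170445, chr5:140673035-140691537, minus strand), was lower in both, from 12.59, 12.60 and 12.56 in the parental libraries to 12.49, 12.46 and 12.50 in those labelled KD and 12.48, 12.47 and 12.49 in those labelled OE. The parental libraries lay above all others, and the difference was -0.10 in each (SE 0.017, adjusted p = 4.9e-06 and 6.5e-06, limma). HARS1 lies head to head with HARS2 and shares 8.46% of its exonic bases with that and other genes. HARS2 was not called in either comparison.

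CARS2, the mitochondrial cysteine enzyme (ENSG00000134905, chr13:110641412-110713603, minus strand), had 12.06, 12.05 and 12.08 in the parental libraries, 12.06, 12.10 and 12.11 in those labelled KD and 11.98, 11.96 and 11.99 in those labelled OE. The libraries labelled OE lay below all others, with a difference of -0.085 (SE 0.018, adjusted p = 3.6e-04, limma). With block medians removed this call was lost (adjusted p = 0.109, limma, against 1.1e-04 at the lowest of 16 alternatives). For OE, calls of higher level also fell on SARS1, EPRS1, AARS1 and LARS1, by 0.048 to 0.073, of which that of LARS1 was lost without a variance trend (adjusted p = 0.0522, limma, against 4.6e-04 at the lowest of 16 alternatives), and RARS1 was called lower by a difference of -0.063. With block medians removed AARS1 was higher by 0.095 in place of 0.061. CARS1, GARS1, KARS1, MARS1, TARS1 and WARS1 and, of the mitochondrial genes, FARS2, PARS2, RARS2, SARS2 and TARS2 were also not called there. Calls were gained by KARS1 (0.035, adjusted p = 0.0295, limma), WARS1 (0.093, 3.7e-04) and TARS1 (-0.042, 0.0424) with block medians removed. TARS1 was also called without parental replicate 3 (0.0398) or OE replicate 3 (0.0241), and PARS2 was called lower without a variance trend (0.0187).

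**Figure D4:**
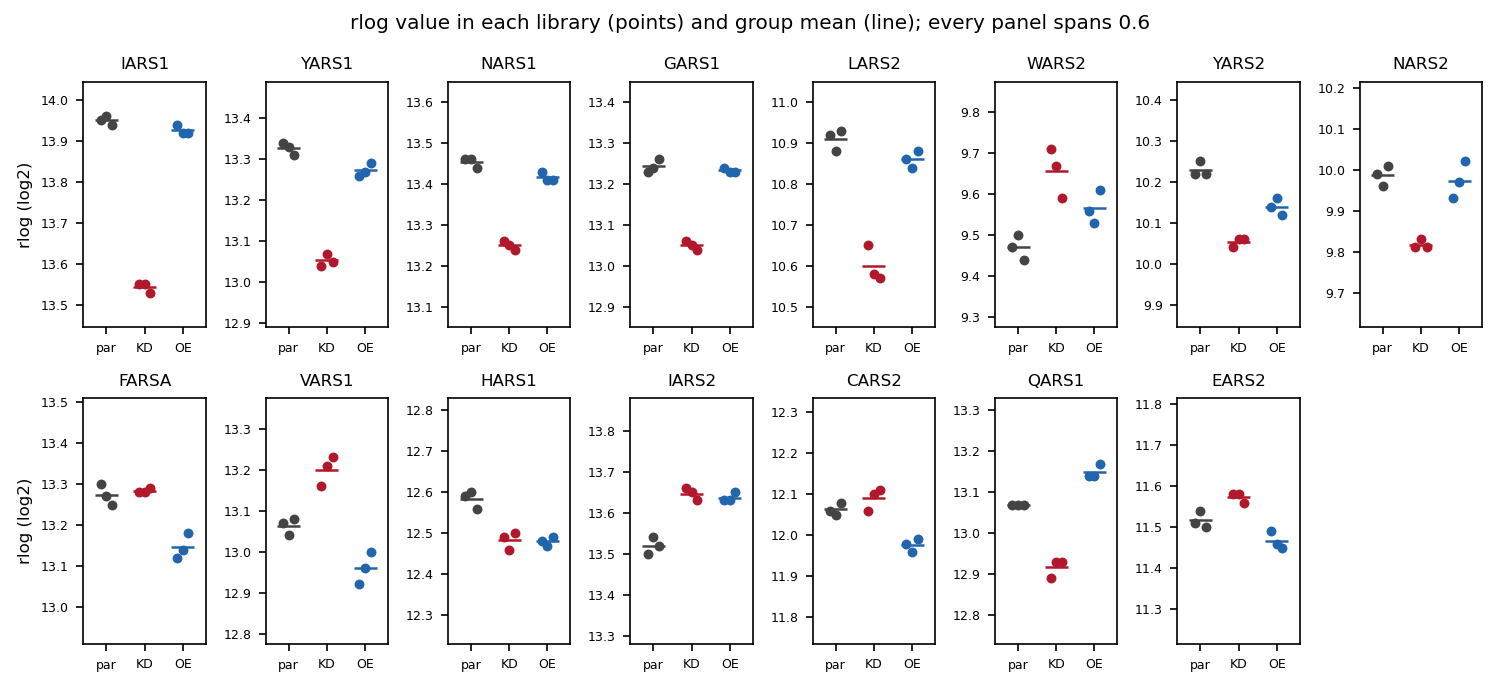
rlog value of 15 synthetase genes in each library (points) with the group mean (line), where par is parental and every panel spans 0.6 on the vertical axis. IARS1, YARS1, NARS1, GARS1 and LARS2 are lowest in the libraries labelled KD, FARSA and CARS2 in those labelled OE, and VARS1, QARS1 and EARS2 lie on opposite sides of parental.

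Enzymes of the same amino acid in the cytosol and the mitochondria were compared pair by pair, with no test of whether partners moved together. In the libraries labelled KD both partners were called lower for asparagine, arginine and tyrosine and both higher for tryptophan and for EPRS1 with EARS2. They were called in opposite directions for isoleucine (IARS1 -0.40, IARS2 0.12) and leucine (LARS1 0.067, LARS2 -0.31), in each case with the lower gene in one of the lowered stretches of chromosomes 9 and 3, and LARS2 was not called with block medians removed (-0.00091). Nor were EPRS1 and EARS2 called under that alternative, and the call of WARS1 was lost under 4 of 16 alternatives, so the tryptophan pair and that of EPRS1 with EARS2 rest on calls that depend on the fit. For OE against parental, both partners were called in the same direction for tyrosine alone, and EPRS1 and EARS2 in opposite directions.

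**Figure D5:**
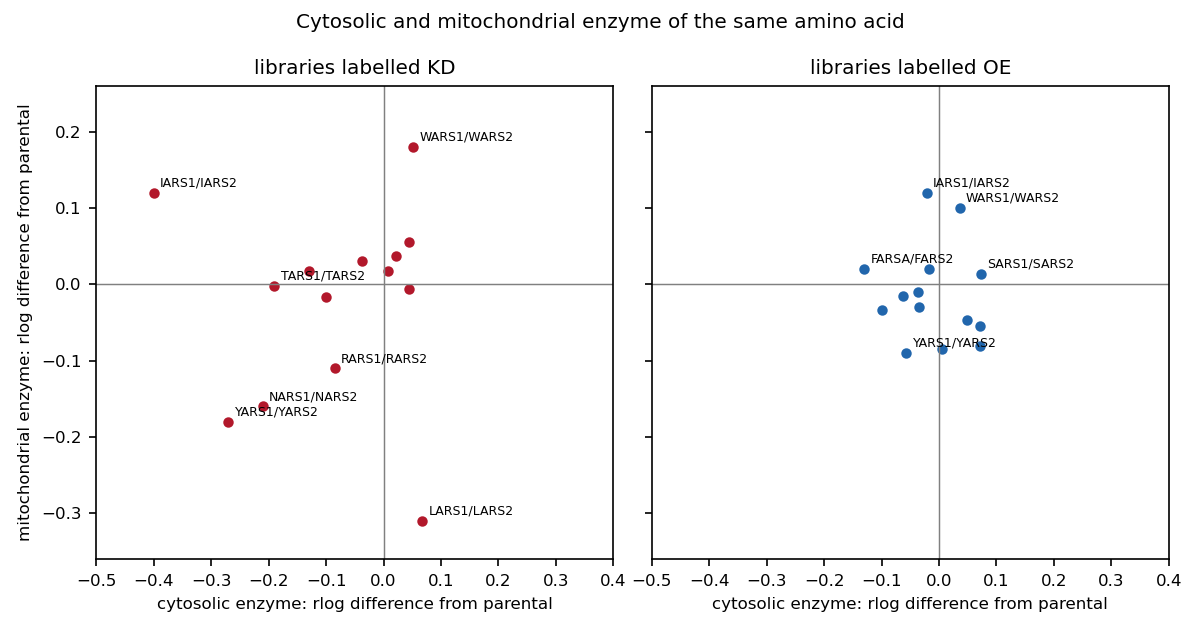
Difference from parental in rlog of the cytosolic enzyme (horizontal axis) and of the mitochondrial enzyme of the same amino acid (vertical axis), 1 point per pair shown, for the libraries labelled KD and OE. YARS1 with YARS2 and NARS1 with NARS2 are lower together in the libraries labelled KD, and IARS1 with IARS2 and LARS1 with LARS2 lie on opposite sides of 0.

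Enzymes of the multisynthetase complex were called in both directions. Of its 8 enzymes, 4 were called lower (IARS1, QARS1, MARS1 and RARS1) and 3 higher (LARS1 and EPRS1 among them) in the libraries labelled KD. These are 50% and 37.5%, where 26.9% of all genes were called in each direction. Among well-expressed genes 39.4% were called lower and 36.4% higher. The median difference of the 8 enzymes was -0.031. IARS1 and QARS1 lie in the lowered stretches, and with block medians removed QARS1 turned to 0.15 and EPRS1 lost its call (adjusted p = 0.23, limma). In the libraries labelled OE 4 were called higher (50%, against 16.9% of all and 25.2% of well-expressed genes). RARS1 alone was called lower (12.5%, against 18% and 31.5%). The scaffold genes AIMP1 and AIMP2, of 3 listed, were both lower in the libraries labelled KD (-0.091 and -0.25), and AIMP2 also in those labelled OE (-0.10, adjusted p = 0.00101, limma). By catalytic fold, 14 of 16 class I and 7 of 17 class II members were called for KD against parental (87.5% and 41.2%, against 53.7% of all genes and 75.8% of the well-expressed ones), with EPRS1, which has both folds, counted in neither, and the difference between the classes was not tested. The class I genes called include IARS1, QARS1 and LARS2 of the lowered stretches. They also include WARS1 and EARS2, whose calls were lost under 4 and 3 of 16 alternatives.

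Between the libraries labelled OE and those labelled KD directly, 19 of the 34 members were called (55.9%), where 47.3% of all genes and 68.3% of the well-expressed ones were, and in 24 the groups did not overlap (70.6%, against 54.1% and 72.4%). Both shares lie below those of well-expressed genes. Of the cytosolic genes, 10 were called higher in OE than in KD (50%, against 23.5% of all and 33.3% of well-expressed genes). Lower calls fell on 2 (10%, against 23.8% and 34.9%). IARS1 (0.38), QARS1 (0.23), YARS1 (0.22), GARS1 (0.19), NARS1 (0.17) and TARS1 (0.16) led the higher genes, and VARS1 (-0.24) and FARSA (-0.14) were lower. Of the mitochondrial genes 4 were called higher, led by LARS2 (0.26), and 3 lower. With block medians removed, QARS1 turned to -0.070 and LARS2 to -0.044, the latter not called. IARS1 fell to 0.10, below YARS1 (0.22), TARS1 (0.19), GARS1 (0.17), NARS1 (0.16) and FARSB (0.15), so the places of IARS1, QARS1 and LARS2 in this order rest on the genes around them.

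Genes that serve the charged tRNAs were read beside the enzymes. Of 10 charging and proofreading genes with values (12 listed), 5 were called lower (50%, against 26.9% of all and 39.4% of well-expressed genes) and 1 higher (10%, against 26.9% and 36.4%) in the libraries labelled KD. GATC (-0.20) and QRSL1 (-0.14) fell and GATB rose (0.17), although these 3 encode the subunits of the same amidotransferase, which completes glutaminyl-tRNA in mitochondria from the product of EARS2, and DTD1, a proofreading deacylase, fell by 0.14. Under the OE label GATB alone was called higher (0.091) and the peptidyl-tRNA hydrolase PTRH2 alone lower (-0.10), 10% each, against 16.9% and 18% of all genes. Of 14 genes of mitochondrial tRNA maturation (16 listed), 8 were called lower (57.1%, against 26.9% of all and 39.4% of well-expressed genes) and HSD17B10 (0.053) higher in the libraries labelled KD, led by the tRNA-modifying CDK5RAP1 (-0.51) and PUS1 (-0.40) and the CCA-adding TRNT1 (-0.34). In those labelled OE 9 were called lower (64.3%, against 18% of all and 31.5% of well-expressed genes), led by CDK5RAP1 (-0.16), GTPBP3 (-0.15) and PUS1 (-0.15), and TRIT1 was higher (0.15).

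The cytosolic and mitochondrial translation factors gave the largest difference of these lists in the libraries labelled OE. EEF1A2, the elongation factor of nerve and muscle that brings charged tRNA to the ribosome, was higher by 1.08 in the libraries labelled OE (SE 0.031, adjusted p = 5.0e-23, limma) and by 0.38 in those labelled KD. EEF1A1, its general counterpart, was higher by 0.078 and 0.16, and EEF1D, of the exchange factor, was lower by differences of -0.17 and -0.35. In all, 3 of 5 cytosolic elongation factor genes (6 listed) were called higher in each comparison (60%, where 26.9% of all genes were for KD and 16.9% for OE), EEF1B2 (0.044) in the libraries labelled OE and EEF2 (0.061) in those labelled KD among them, while EEF1B2 was lower in those labelled KD (-0.13). Among well-expressed genes 36.4% were called higher for KD and 25.2% for OE. Of 9 mitochondrial translation factors (10 listed), 4 were called lower in the libraries labelled KD (44.4%, against 26.9% of all and 39.4% of well-expressed genes), led by MRRF (-0.53), MTRFR (-0.35) and MTRF1 (-0.28), and MTIF3 was higher (0.15). In those labelled OE MTRF1 (-0.10), MRRF (-0.10) and GFM1 (-0.089) were lower (33.3%, against 18% of all and 31.5% of well-expressed genes) and MTIF3 (0.083) higher. No synthetase moved as far as MRRF did in the libraries labelled KD (-0.53), or as far as EEF1A2 did in those labelled OE (1.08). These values are without removal of block medians. Neighbours were read for the synthetases alone, and not for MRRF on chromosome 9 or TRNT1 on chromosome 3.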

How the data were processed

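The authors trimmed the reads with cutadapt, discarding low-quality and short reads, aligned what was left to GRCh38 using HISAT2, took gene counts from featureCounts of Subread, and removed genes with very low total counts. The submitters' processing notes also name DESeq2, and no version is given in the sources used here. The values deposited by the authors are regularized log2 values of 22290 genes, of which 22195 had a symbol in GENCODE release 44. They hold no counts, so the depth reached by each library is unknown from them and no count model was used.

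All 9 libraries were fitted together in limma 3.58.1 (R 4.3.3) with a variance trend and no replicate block, in a script tested on simulated data, and p-values were adjusted over all genes. Python 3.11.15 was used for summaries. Neighbours are the well-expressed genes (average rlog 8 or more) of the same 20-Mb block. Alternatives were a fit without a trend, a minimum mean rlog of 5, a difference over 0.5 as well, unadjusted p-values, only the libraries compared, library centring, removal of block medians, a replicate block and leaving out each library. Members and lists were chosen with earlier results of these data known. Full values are given for the 4 called members with the largest absolute difference in each set and comparison with parental and for those called in opposite directions, and for other lists up to 3 called genes per direction. Other members are named with single values or in ranges, and ATF4, DDIT3 and TRAP1 were named beyond this rule. Some genes that enter the counts and medians are not reported here by name. Promoter windows are from RefSeq.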

Additional observations from a re-analysis of the deposited data

How the results depend on the processing

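No member differed by more than 0.5 in any comparison, so requiring that size as well left 0 called genes in every set and direction (limma). At an unadjusted p under 0.05 the libraries labelled KD had 10 cytosolic genes lower and 5 higher and 4 mitochondrial genes lower and 3 higher, those labelled OE had 7 lower and 6 higher and 4 lower and 2 higher, and OE against KD gave 12 higher and 2 lower and 4 higher and 4 lower. Removing block medians moved medians and turned directions. In the libraries labelled KD it gave 6 cytosolic genes higher and 9 lower and 4 mitochondrial genes higher and 3 lower, and in those labelled OE 9 higher and 7 lower and 2 higher and 1 lower. It turned QARS1 to 0.15 against parental in the libraries labelled KD and to -0.070 in OE against KD, IARS1 to 0.041 in OE against parental (called, adjusted p = 0.00616, limma, in a range over the alternatives of 0.00616 to 0.536) and LARS2 to -0.044 in OE against KD. The cytosolic median moved to -0.011 in the libraries labelled KD and 0.018 in those labelled OE, and the mitochondrial median to -0.0076 in those labelled KD and -0.0087 in OE against KD. Centring each library moved the cytosolic medians to -0.053 and -0.0034 and the mitochondrial median in OE to -0.012. Without a variance trend 1 mitochondrial gene was higher in the libraries labelled OE. The causes were not tested. Leaving out 1 library in turn gave, against parental, 4 to 5 cytosolic genes higher and 10 lower and 2 to 3 mitochondrial genes higher and 4 lower in KD, and 6 higher and 5 to 7 lower and 1 to 2 higher and 2 to 3 lower in OE. In OE against KD it gave 9 to 11 higher and 2 lower and 4 higher and 2 to 3 lower. The 1 mitochondrial gene left higher in OE came without parental replicate 3 and without OE replicate 3, where WARS2 lost its call. Medians ranged from -0.067 to -0.050 (cytosolic) and -0.0054 to 0.012 (mitochondrial) in KD, from -0.018 to -0.0078 and -0.033 to -0.021 in OE, and from 0.043 to 0.052 and -0.022 to -0.016 in OE against KD. Of the 22 members called in KD, 17 kept their call under all 16 alternatives other than the size limit, and so did 12 of 17 in OE and 15 of 19 in OE against KD. With a replicate block the counts were 5 higher and 10 lower and 3 higher and 4 lower in KD, 6 and 6 and 2 and 3 in OE, and 10 and 2 and 4 and 3 in OE against KD, each as without it. Deviations of libraries of the same number from their group means had correlations across genes of -0.12, -0.0811 and 0.0213 for parental with KD, -0.107, -0.0302 and 0.00366 for parental with OE, and 0.218, 0.041 and 0.268 for KD with OE. KD and OE replicates 1 and 3 thus deviated together, with the highest correlations of all pairs, and for KD with OE of different numbers they ran from -0.262 to 0.0668. Parental libraries did not deviate with those of the same number, and whether KD and OE are paired cannot be told from these values.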
